A study of Mus musculus with 6 samples.

Results

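Insulin-like growth factor (IGF) binding proteins are secreted carriers that hold IGF1 and IGF2 outside the cell. A bound IGF cannot reach its receptor, and proteases that cut the carrier set it free, so the same protein can store the growth factor or withhold it. Cultured fibroblasts secrete several of these carriers, and several of them are known parts of the secretome of senescent cells. The transcripts of Igfbp2, Igfbp3, Igfbp4, Igfbp5, Igfbp6 and Igfbp7 are described here. They came from a fixed list, on which Igfbp1 was not included, and each is named by at least 1 probe set carrying a single gene symbol. The 6 genes, of 12393 measured, had 14 probe sets. All 6 genes and all 14 probe sets passed the filter on low values, set at log2 values of 4 or more in 3 or more of the arrays.

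RNA of 6 lines of mouse embryo fibroblasts, primary cells grown out of embryos, was hybridised to 1 Affymetrix array each. The 3 chromosomally unstable lines were BubR1H/H (pairs 9515 and 9938), with hypomorphic alleles of BubR1, a kinase of the spindle checkpoint, and wild-type CDC20, and CDC20AAA/AAA (pair 10074), with wild-type BubR1 and mutated alleles of CDC20, an activator of mitotic exit, which the labels call hypomorphic as well. The 3 stable lines were BubR1+/+ (pairs 9515 and 9938) and CDC20+/+ (pair 10074), wild type at both genes. The number in a sample title is shared by 1 unstable and 1 stable line, and such lines are called a pair. All lines were kept for 2 passages in the same medium with no further treatment. Strain and embryonic age were not given in the sources used here, and neither was whether a line came from 1 embryo, and p-values therefore reflect only how these lines vary. Values are the authors' GCRMA values on the log2 scale, so that a difference of 1 is a 2-fold change.

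Bub1b, which encodes BubR1, differed by -1.66, -2.08 and -0.62 (log2, unstable minus stable) in pairs 9515, 9938 and 10074. Pair 9938 had the female pattern of Xist and Eif2s3y in both lines and the other pairs the male pattern, so sex and pair cannot be told apart in differences between pair 9938 and the others. All 10 fibroblast markers passed the filter. Of 7 endothelial markers only Kdr passed, and Pecam1 and Cdh5 lay below the log2 floor. Of 6 epithelial markers the keratin genes Krt7, Krt8, Krt18 and Krt19 passed, and Epcam and Cdh1 lay below the floor. Of 13 macrophage markers 12 passed, and their summed level was 12.07 to 14.39 in unstable lines and 12.20 to 14.41 in stable lines, lowest in both lines of pair 9515. In bulk RNA, fewer cells of a type and less RNA per cell cannot be told apart.

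No binding protein gene separated the unstable from the stable lines. In all 6 the groups overlapped, as they did for most genes. Of all genes, 3.54% had every unstable line above every stable line and 6.41% the reverse. By adjusted p, 0 of 6 passed the limma test at a threshold of 0.05, beside 0 of 8382 genes, or 0.0%. With an unadjusted p under 0.05 there were 0 of 6 members, beside 4.28% of all genes. Over the group means 4 members were higher and 2 lower, with a median difference of 0.03, beside -0.01 over all genes. Only Igfbp5 was higher in the unstable line of all 3 pairs, a pattern held by 16.9% of genes, and both of its probe sets were, beside 15.8% of all probe sets. No member was lower in all 3 pairs, beside 19.3% of genes. The median range of pair means was 0.93 over the 6 members, beside 0.27 over all genes.

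**Figure D1:**
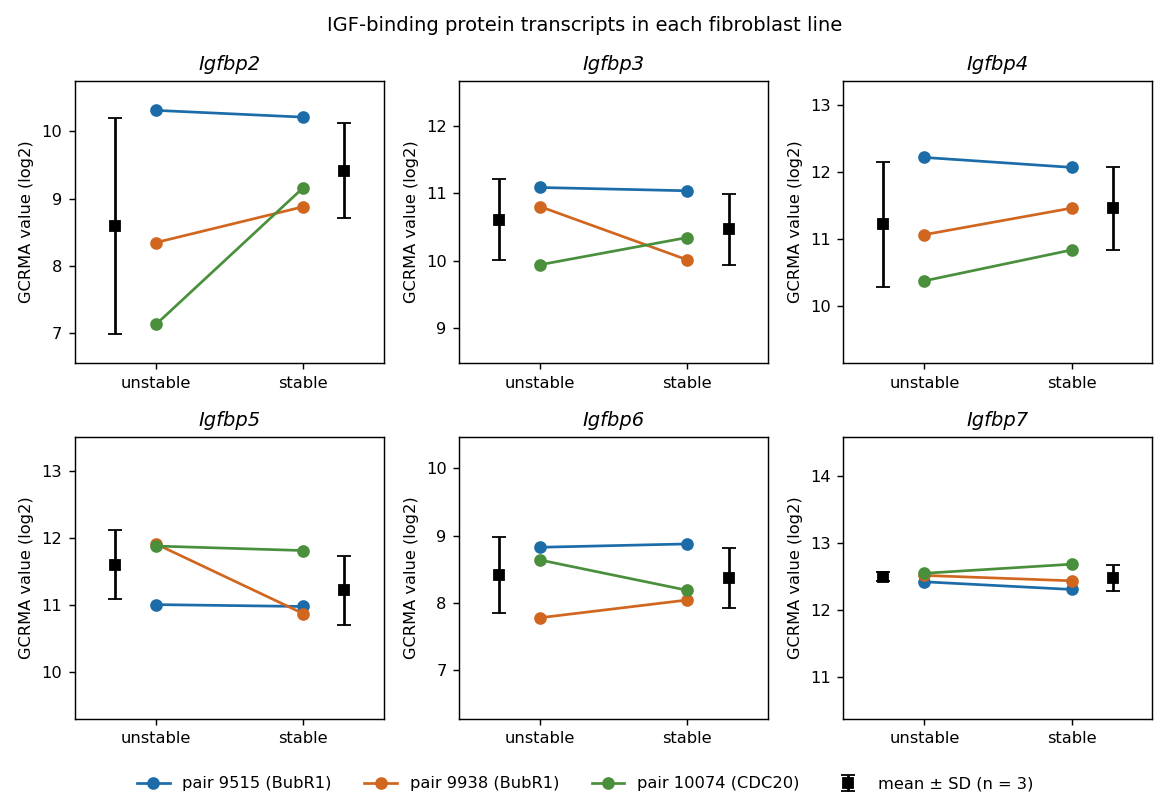
Each panel plots the log2 GCRMA value (vertical axis, same span in every panel) of the brightest probe set of a gene in the unstable and the stable line of each pair, joined by a line, with the group mean ± SD of 3 lines as black squares. The steepest line is that of Igfbp2 in the CDC20 pair, with 7.13 in the unstable and 9.16 in the stable line, while Igfbp7 is nearly flat.

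The promoters of Igfbp2, Igfbp4 and Igfbp5 are shown. By the brightest probe sets, Igfbp2 and Igfbp4 had the widest ranges over the 6 lines, 3.19 and 1.84. The range of Igfbp5 was 2.85 by its dimmer probe set. By its brighter one it was 1.04, under those of Igfbp3 (1.15) and Igfbp6 (1.10). Igfbp2 and Igfbp4 were both highest in pair 9515 and lowest in the CDC20AAA/AAA line, and the dimmer probe set of Igfbp5 was lowest in pair 9515. Each sequence is 300 bases from RefSeq on GRCm38.p6, read 5′ to 3′ on the gene's strand, with 250 bases before and 50 after the annotated start. They lie at chr1:72824230-72824529 on the plus strand (the first of 2 annotated starts), chr11:99040994-99041293 on the plus strand and chr1:72874816-72875115 on the minus strand. Capitals mark matches, on either strand, to 3 motifs that do not overlap here. The TATA box was searched as TATAAA. The GC box, known to be bound by Sp1, was searched as GGGCGG. The E-box, known to be bound by basic helix-loop-helix factors, was searched as CACGTG.
Igfbp2 promoter: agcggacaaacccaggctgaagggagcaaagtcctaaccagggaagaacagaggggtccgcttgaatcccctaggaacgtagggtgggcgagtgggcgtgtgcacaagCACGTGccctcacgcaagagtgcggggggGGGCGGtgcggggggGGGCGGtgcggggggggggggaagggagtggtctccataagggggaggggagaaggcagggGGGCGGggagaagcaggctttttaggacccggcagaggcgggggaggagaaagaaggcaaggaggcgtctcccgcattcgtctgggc
Igfbp4 promoter: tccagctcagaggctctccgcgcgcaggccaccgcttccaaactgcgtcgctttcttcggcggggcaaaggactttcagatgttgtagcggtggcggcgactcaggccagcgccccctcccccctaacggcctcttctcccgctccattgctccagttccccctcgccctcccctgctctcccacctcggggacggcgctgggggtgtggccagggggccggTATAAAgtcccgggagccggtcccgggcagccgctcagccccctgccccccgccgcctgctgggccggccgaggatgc
Igfbp5 promoter: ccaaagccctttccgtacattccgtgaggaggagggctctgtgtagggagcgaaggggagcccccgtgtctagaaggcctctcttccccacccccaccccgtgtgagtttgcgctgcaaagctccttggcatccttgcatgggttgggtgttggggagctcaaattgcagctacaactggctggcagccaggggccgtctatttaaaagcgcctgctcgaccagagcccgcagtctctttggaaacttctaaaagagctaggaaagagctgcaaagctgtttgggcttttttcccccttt

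The Igfbp2 window held 3 GC boxes and 1 E-box and no TATA box. The window of its other annotated start, at chr1:72825137-72825436 and not printed, held none of these motifs and had a GC content of 57.3%. That of Igfbp4 held 1 TATA box, which began 28 bases before the start, and neither of the other motifs. That of Igfbp5 held none of these letters. Among 32544 different promoter sequences of the same length, 13.6% held the TATA box letters, 35.9% those of the GC box and 7.2% those of the E-box. The windows had a GC content of 67.0%, 71.3% and 56.3% for Igfbp2, Igfbp4 and Igfbp5, beside a median of 53.0% over all promoters. These matches describe the windows only, and binding was not measured.

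Igfbp2, a carrier that prefers IGF2 and can also bind integrins, had the widest range of the 6 members. It measured 10.31, 8.35 and 7.13 in unstable lines (pairs 9515, 9938 and 10074 in this order throughout), against 10.21, 8.88 and 9.16 in stable lines. The CDC20AAA/AAA line was the lowest of all, and the lines of pair 9515 were the highest and nearly equal. In the CDC20 pair Igfbp2 was 4.10-fold lower in the unstable line, a difference of -2.04 on the log2 scale. This compares 1 line with 1 line and has no replicate check. A level at least 2-fold lower in that pair was seen for 1 of the 6 members, beside 1.71% of all genes, and 8 of 8382 genes, Igfbp2 among them, were as low or lower. In the BubR1 pairs the differences were 0.10 and -0.53.

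Over all lines Igfbp2 averaged 8.59 ± 1.61 in unstable and 9.42 ± 0.70 in stable lines (SD, n = 3 each). The difference of -0.82 (SE 0.83, 95% interval -2.84 to 1.19) did not pass limma (adjusted p = 0.999). Leaving out the CDC20AAA/AAA line moved it to -0.09, and leaving out the BubR1H/H line of pair 9515 to -1.68. The BubR1 effect minus the CDC20 effect was 1.82 (SE 1.53) and did not pass limma either (adjusted p = 1.000), beside 0.0% of genes called and 1.59% with an unadjusted p under 0.05. Leaving out the BubR1H/H line of pair 9515 gave 0.835, and leaving out that of pair 9938 gave 2.80. With the pair as a block its SE was 0.33 and its unadjusted p by limma 0.00365, beside 5.68% of genes with an unadjusted p under 0.05, but the adjusted p was 0.382. Macrophage markers were lower in the same CDC20AAA/AAA line, 12 of 12 with a median of -1.07, while their medians were -0.23 and 0.10 in pairs 9515 and 9938. The 9 tested cell division genes were lower in the unstable line of every pair, with medians of -0.26, -0.67 and -0.73, also in pair 9515, where Igfbp2 was 0.10 higher. The part of either list in the Igfbp2 values was not tested.

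Igfbp4, a carrier that withholds IGFs from their receptor until it is cut by the protease PAPP-A, followed the pairs. By its brightest probe set it measured 12.22, 11.07 and 10.38 in unstable lines, against 12.07, 11.46 and 10.84 in the stable lines. Lines of the same pair lay within 0.46 of each other, while the pair means spanned 1.53. Pair 9515 was high and the CDC20 pair low, and the unstable and stable groups overlapped. The F test of limma for differences between pairs called Igfbp4 (adjusted p = 0.033), and it was 1 of 6 members called, beside 5.93% of genes. Igfbp2 had a wider pair range, 2.12, but did not pass (adjusted p = 0.121 by limma's F test). A pair range at least as wide as that of Igfbp4 was held by 4.12% of genes. The call was lost when either line of pair 9515 or the CDC20AAA/AAA line was left out (adjusted p = 0.145 and 0.104 without the unstable and the stable line of pair 9515, and 0.064 without CDC20AAA/AAA, by limma). Over all genes, the 497 called became 1 when either line of pair 9515 was left out.

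Between the stability groups Igfbp4 averaged 11.22 ± 0.93 in unstable and 11.46 ± 0.62 in stable lines (SD, n = 3 each), a difference of -0.24 (SE 0.53, 95% interval -1.52 to 1.05; adjusted p = 0.999 by limma). All 6 of its probe sets had the same order of signs. They were higher in the unstable line of pair 9515, by 0.15 to 0.57, and lower in those of pairs 9938 and 10074, with differences of -0.67 to -0.36 and -1.002 to -0.17. These probe sets read the same RNA and are not independent. Without the CDC20AAA/AAA line the difference was 0.19. As probe sets fitted on their own, 3 of the 6 passed the F test between pairs, beside 4.3% of all probe sets. Both lines of pair 9515, in which Igfbp4 and Igfbp2 were highest, had the lowest macrophage levels, and in the F test between pairs 9 of 12 macrophage markers also passed. Their summed level was 14.39 in the unstable and 14.34 in the stable line of pair 9938, and 13.53 and 14.41 in those of the CDC20 pair. The cartilage genes Acan and Col2a1 followed the order of Igfbp4, with pair means of 6.23, 3.85 and 3.14 for Acan and 7.42, 3.97 and 3.13 for Col2a1. They were 2 of 3 tested cartilage and bone markers, of 7 listed, that passed the F test (adjusted p = 0.012 and 0.018 by limma). Acan and Col2a1 reached a log2 value of 4 only in pair 9515 and in BubR1+/+ of pair 9938. Their means for pairs 9938 and 10074 were thus under that value. Sox9, the other tested marker, had the reverse pattern and was lowest in pair 9515, with pair means of 7.58, 8.22 and 8.22. The keratin genes Krt7 and Krt8, 2 of 4 tested epithelial markers, passed the F test too (adjusted p = 0.017 and 0.049 by limma). Both lay below a log2 value of 4 in the stable lines of pairs 9938 and 10074, and Krt8 also in the CDC20AAA/AAA line. The brighter Krt18 and Krt19 did not pass (adjusted p = 0.229 and 0.056 by limma's F test). The part of any of these cells in the pair differences was not tested.

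**Figure D2:**
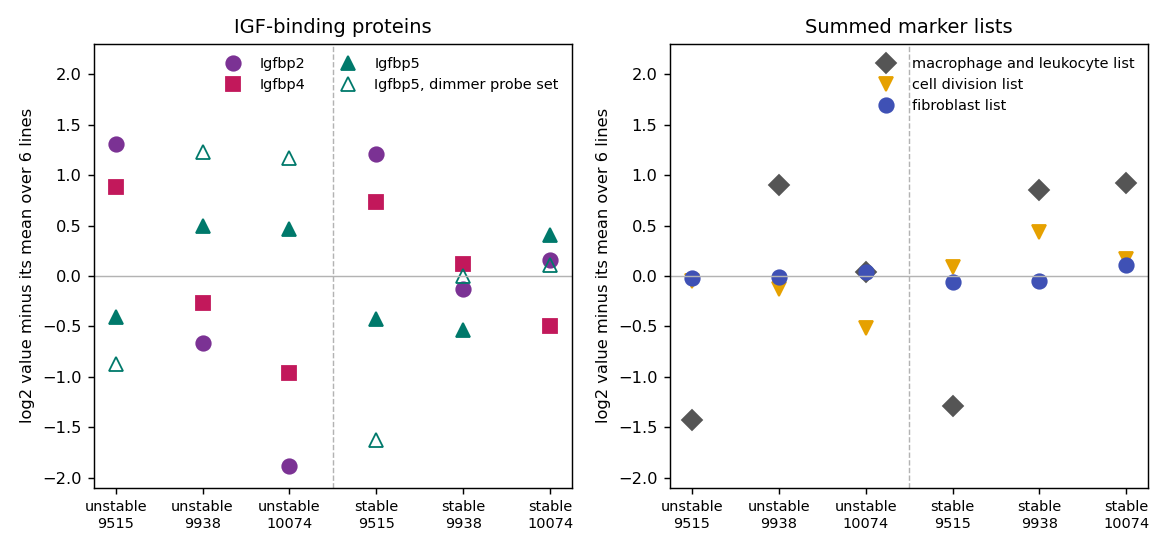
The left panel plots Igfbp2, Igfbp4 and both probe sets of Igfbp5, and the right panel the summed level of 3 marker lists, each as its log2 value minus its mean over the 6 lines (vertical axis) for each line (horizontal axis). Igfbp2 and Igfbp4 are highest in the lines of pair 9515, in which the macrophage list is lowest, and the fibroblast list is nearly level.

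Igfbp5, a carrier that binds the extracellular matrix and is prominent in bone and muscle, gave different sizes by its 2 probe sets. By the brighter one it measured 11.01, 11.91 and 11.88 in unstable lines, against 10.98, 10.87 and 11.81 in the stable lines. Here only pair 9938 showed a gap, of 1.04, and the other pairs differed by 0.03 and 0.07. By the dimmer one it measured 7.65, 9.75 and 9.69 in the unstable lines, against 6.89, 8.52 and 8.63 in the stable lines. The unstable line was higher in every pair by this probe set, by 0.75, 1.23 and 1.06, although the groups overlapped because both lines of pair 9515 were low. Of 7 smooth muscle and pericyte markers, all tested, 4 were also higher in all 3 pairs and 1, Cspg4, was lower in all 3. These patterns were held by 16.9% and 19.3% of genes. Myh11 differed by 0.59, 2.12 and 0.78, Rgs5 by 0.85, 1.70 and 0.86 and Cnn1 by 0.52, 0.47 and 0.25. In the stable line of pair 9938 Rgs5 measured 3.41, below the log2 floor of 4. Cspg4 differed by -0.37, -0.87 and -0.39. The groups did not overlap for Myh11 and Rgs5, higher in unstable lines, nor for Cspg4, lower in them. Such patterns were held by 3.54% and 6.41% of genes. The summed level of the list was 14.18 to 14.50 in unstable and 14.18 to 14.58 in stable lines, and its part in the Igfbp5 values was not tested.

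The brighter probe set averaged 11.60 ± 0.51 in unstable and 11.22 ± 0.51 in stable lines (SD, n = 3 each), and its difference of 0.38 (SE 0.35, 95% interval -0.47 to 1.23) did not pass limma (adjusted p = 0.999). It was 0.67 without either the unstable line of pair 9515 or the stable line of pair 10074, 0.20 to 0.26 without any other line, 0.05 without pair 9938, and 0.70 with the mean of both probe sets. The dimmer one differed by 1.02 (SE 0.71), which is 2.02-fold (adjusted p = 0.999 by limma over probe sets). With the pair as a block its SE was 0.12 and its unadjusted p by limma 0.00033, but 0 of 13589 probe sets, or 0.0%, passed the adjusted threshold (adjusted p = 0.292 for this one). A higher value with an unadjusted p under 0.05 in that fit was held by 4.67% of probe sets. The dimmer probe set also differed between pairs (adjusted p = 0.013 by limma's F test), and the brighter one did not pass the same fit over probe sets (adjusted p = 0.237). Why the 2 probe sets disagree was not tested.

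**Figure D3:**
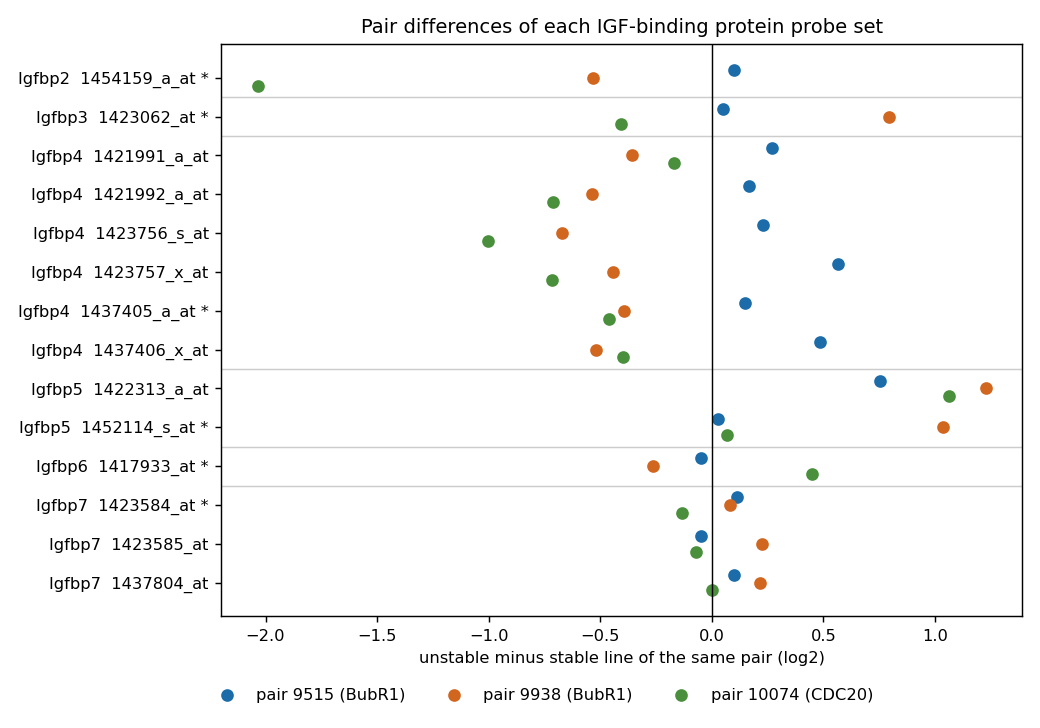
Differences between the unstable and the stable line of the same pair (horizontal axis, log2) are plotted for each of the 14 probe sets (rows), with 1 point per pair and an asterisk on the probe set that stands for its gene. The 6 probe sets of Igfbp4 keep the same signs, whereas those of Igfbp5 agree in size only in pair 9938.

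Igfbp3, the main carrier of IGFs in serum and a target of p53 in human cells, had opposite signs in the BubR1 and CDC20 lines. It measured 11.09, 10.80 and 9.94 in unstable lines, against 11.04, 10.01 and 10.34 in the stable lines. It was thus 1.73-fold higher in the BubR1H/H line of pair 9938, nearly level in pair 9515 and 1.32-fold lower in the CDC20AAA/AAA line. The mean was 10.61 ± 0.60 in unstable and 10.47 ± 0.53 in stable lines (SD, n = 3 each). The difference of 0.15 (SE 0.38, 95% interval -0.78 to 1.07) did not pass limma (adjusted p = 0.999), nor did the BubR1 effect minus the CDC20 effect, at 0.83 (SE 0.70, adjusted p = 1.000 by limma), which became 0.31 when the BubR1+/+ line of pair 9938 was left out and 1.34 when that of pair 9515 was. Within the BubR1 lines alone the difference was 0.42 (SE 0.41, adjusted p = 1.000 by limma), beside 0.0% of genes called in that contrast and 3.15% with an unadjusted p under 0.05. Signs shared by both BubR1 pairs and opposite in the CDC20 pair were held by 19.2% of genes. The mesothelial markers Wt1 and Upk3b, the 2 of 5 listed that passed the filter, had the same signs as Igfbp3 in every pair, with medians of 0.98, 1.06 and -0.88. Their summed level with Msln was 6.21 to 8.71 in unstable and 6.65 to 7.92 in stable lines, and its part in the Igfbp3 values was not tested.

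Igfbp6, which prefers IGF2, and Igfbp7, which binds IGFs only weakly and also binds insulin, had the smallest differences between the group means. Igfbp6 measured 8.83, 7.78 and 8.64 in unstable lines, against 8.88, 8.04 and 8.18 in the stable lines. Both lines of pair 9938 were the lowest, and the unstable line was higher only in the CDC20 pair. Its difference was 0.05 (SE 0.34, 95% interval -0.79 to 0.88; adjusted p = 0.999 by limma). Igfbp7 measured 12.42, 12.51 and 12.55 in the unstable lines, against 12.31, 12.43 and 12.68 in the stable lines. All 6 lines lay within 0.38, and the 95% interval of its difference, -0.28 to 0.32, was the narrowest of the 6 members. Its 3 probe sets had pair differences between -0.14 and 0.23.

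For each member the 3 genes with the most similar profile over the 6 lines were taken among 812 genes with an SD of at least 0.5, by Pearson's r, as a description. The lines come in pairs, so no test is given. Those of Igfbp2 were Col18a1 (r = 0.989), the homeobox gene Msx1 (r = 0.971) and Tasp1 (r = 0.969). Those of Igfbp4 were the homeobox gene Dlx1 (r = 0.986), Hspb2 (r = 0.975) and Trps1 (r = 0.975). Dlx1 and Hspb2 lay below the log2 floor of 4 in the unstable line of pair 9938 and both lines of pair 10074. Msx1 measured 8.23, 6.37 and 4.82 in unstable lines, against 8.43, 6.68 and 6.40 in the stable lines, and thus shared with Igfbp2 the high pair 9515 and the low CDC20AAA/AAA line. The profile of Igfbp3 was nearest to those of Upk3b (r = 0.951), a mesothelial marker, Spock3 (r = 0.949) and Clu (r = 0.931). For Igfbp5 these genes were Tesc, Fam174b and Apoc2 (r = 0.987, 0.976 and 0.969), and for Igfbp6 they were Ifitm10, Perp and Ctnnd2 (r = 0.971, 0.969 and 0.967). Tesc and Apoc2 lay below the floor in both lines of pair 9515 and the stable line of pair 9938. For Igfbp7, whose own SD was only 0.13, they were P2rx3, Adh1 and Tbxa2r (r = 0.963, 0.956 and 0.953).

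The ligands and receptors of the system did not pass the test either. Of 6 listed genes 4 were tested, and 3 were higher and 1 lower over the group means, with a median of 0.04 and 0 called. Igf1 measured 7.74, 8.91 and 8.42 in unstable lines, against 7.27, 8.61 and 9.10 in the stable lines. It was higher in both BubR1H/H lines, by 0.46 and 0.29, and lower in the CDC20AAA/AAA line, at -0.68, the same signs as Igfbp3. Macrophages also express Igf1; the medians of their markers were -0.23, 0.10 and -1.07 in the 3 pairs, of the opposite sign to Igf1 in pair 9515, and their part in the Igf1 values was not tested. Igf2 measured 12.27, 11.17 and 11.20 in the unstable lines, against 12.15, 11.43 and 10.89 in the stable lines, highest in pair 9515. The signalling receptor Igf1r differed by -0.01 (SE 0.08), and Igf2r, which takes up IGF2 for degradation, by 0.10 (SE 0.11). Insr and Insrr lay below the floor.

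Among the proteases that cut binding proteins and their regulators, 6 of 8 listed genes were tested, with 2 higher, 4 lower, a median of -0.02 and 0 called. Pappa, which encodes PAPP-A, measured 9.42, 9.65 and 9.70 in unstable lines, against 9.31, 9.31 and 9.10 in the stable lines. All unstable lines lay above all stable lines, which 3.54% of genes showed. The difference was 0.35 (SE 0.12, 95% interval 0.06 to 0.64), with an unadjusted p of 0.025 by limma, and it did not pass after adjustment (adjusted p = 0.999). It was higher by 0.11, 0.35 and 0.60 in the 3 pairs, and only 1 probe set named Pappa. The stanniocalcin gene Stc2, whose product inhibits PAPP-A, differed by -0.25 (SE 0.29). It lay below the log2 floor of 4 in both lines of the CDC20 pair, at 3.52 and 3.78. The other stanniocalcin gene listed, Stc1, differed by -0.02 (SE 0.54). The metalloprotease gene Adam12 differed by -0.12 (SE 0.10) and the serine protease gene Htra1 by 0.04 (SE 0.12).

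Of 11 other genes whose proteins share the IGF-binding domain, 9 were tested, with 6 higher, 3 lower, a median of 0.04 and 0 called. The largest differences were those of Kazald1 at -0.47 (SE 0.29) and Htra3 at -0.45 (SE 0.26), and the matricellular genes Ccn5 and Ccn1 differed by -0.34 (SE 0.34) and 0.08 (SE 0.09). Kazald1 was lower in the unstable line of all 3 pairs, with differences of -0.29, -0.875 and -0.25. Of 24 listed genes of signalling from the receptor, 20 were tested, 11 were higher and 9 lower, the median was 0.01 and 0 were called. The regulatory subunit gene of PI 3-kinase, Pik3r1, differed by 0.30 (SE 0.11, adjusted p = 0.999 by limma), with pair differences of 0.26, 0.10 and 0.54. The kinase gene Pdpk1 differed by 0.15 (SE 0.10), Pik3ca by 0.20 (SE 0.16) and the transcription factor gene Foxo3 by 0.20 (SE 0.14).

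**Figure D4:**
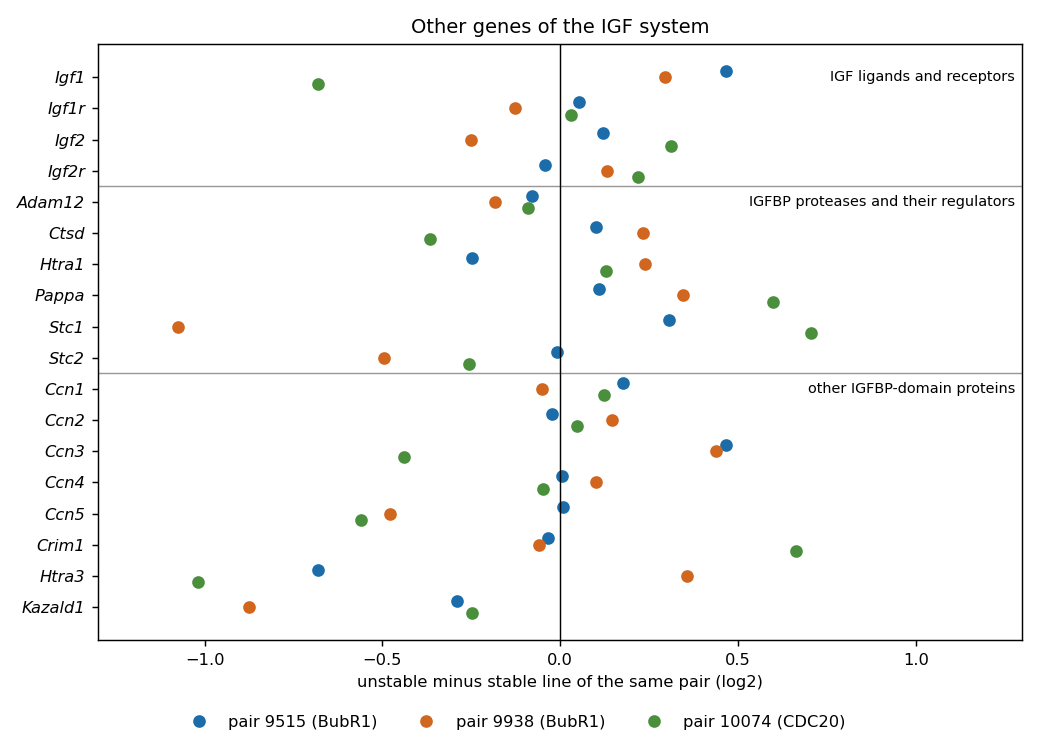
Differences between the unstable and the stable line of the same pair (horizontal axis, log2) are plotted for the tested ligands, receptors, proteases, regulators and other IGF-binding-domain genes (rows), with 1 point per pair; Htra1, which is on both of the last lists, is drawn once. Pappa lies to the right of 0 in all 3 pairs, at 0.11, 0.35 and 0.60, and Kazald1 to the left.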

How the data were processed

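The submitters' processing notes name R 2.15.3 and GCRMA 2.28.0 for these Affymetrix arrays. The authors deposited log2 values (range 0.922 to 14.393), which were used untransformed. GCRMA corrects background, brings arrays to a common distribution and summarises probe sets, so overall brightness is equal (array medians 6.156 to 6.196), and 6 arrays limit precision. Names came from GEO's platform annotation, in which 20380 of 22626 had 1 symbol. Each of 12393 genes was represented by its brightest probe set, and 8382 passed the filter.

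Differences were fitted with limma 3.58.1 in R 4.3.3 (two-sided, Benjamini-Hochberg over all genes tested), without a block. Their SE and intervals therefore include the spread between pairs. The BubR1 contrast came from a 4-group model. An exact permutation test of 3 against 3 lines cannot go below p = 0.1 and was not used. Deviations from the group means correlated within each number (r = 0.812, 0.681 and 0.602 across genes), so the title number was taken to pair them. The fits were run on simulated data to check the size of planted differences, and no conclusion on power is drawn from that. Members and lists were chosen with earlier results of these data known. Named genes were the members, up to 4 genes of each list by p and the 3 most alike genes.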

Additional observations from a re-analysis of the deposited data

Results flagged for a closer look

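By their brightest probe sets, Igfbp3, Igfbp6 and Igfbp7 moved one way in both BubR1 pairs and the other way in the CDC20 pair. For Igfbp7 the other probe sets did not bear this out clearly. They differed by -0.05, 0.225 and -0.07, and by 0.10, 0.21 and -0.001, in pairs 9515, 9938 and 10074. By the brightest probe sets, the unstable minus stable difference in the CDC20 pair was -0.405 for Igfbp3, 0.451 for Igfbp6 and -0.135 for Igfbp7. In pairs 9515 and 9938 it was 0.05 and 0.79 for Igfbp3, -0.05 and -0.26 for Igfbp6, and 0.11 and 0.08 for Igfbp7. Such signs were shared by 19.2% of all genes. The difference between the effects did not pass limma after adjustment for any of them, with or without the pair as a block. The CDC20 effect in it is 1 line against 1 line, so its spread was not measured.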

How the results depend on the processing

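The counts of genes past the threshold stayed at 0 for unstable minus stable, for the BubR1 contrast and for the difference between effects under every alternative run, including the pair number as a replicate block. That block changed no call of a member, and the block counts were 0 in all 3 contrasts, with smallest adjusted p of 0.262, 0.219 and 0.306 by limma. For differences between pairs the count was 497 genes, 953 with an intensity trend and robust prior, and 1 to 559 with lines left out; it was 1 when either line of pair 9515 was left out. The leaving out of lines in this test and the probe set fits of it were chosen after seeing the data. So was the leaving out of lines for the difference between effects.

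With lines or pairs left out, unstable minus stable lay between -0.178 and 0.48 for Igfbp3 (with -0.0935 between), -0.73 and 0.19 for Igfbp4, -0.16 and 0.36 for Igfbp6 and -0.0645 and 0.12 for Igfbp7 (with -0.0275 and -0.0105 by pairs), so that their signs turned. That of Igfbp5 lay between 0.0475 and 0.67 and was 0.70 with the mean of probe sets, and that of Igfbp2 lay between -1.68 and -0.09, both with no change of sign. The BubR1 difference lay between -1.20 and 0.77 for Igfbp2, -0.0935 and 0.94 for Igfbp3, -0.70 and 0.45 for Igfbp4 and -0.68 and 0.37 for Igfbp6. The difference between effects lay between 0.835 and 2.80 for Igfbp2, 0.31 and 1.34 for Igfbp3 and, for Igfbp4, where it was 0.34 over all lines, -0.24 and 0.91. The range of pair means lay between 1.43 and 3.03 for Igfbp2, 0.66 and 1.34 for Igfbp3, 1.25 and 1.82 for Igfbp4, 0.59 and 1.11 for Igfbp5 and 0.71 and 1.17 for Igfbp6, with calls gained or lost. For Igfbp4 the pair range was 0.97, 1.34 and 1.67 by the 3 probe sets that did not pass, and for Igfbp5 it was 1.37 with the mean of probe sets and 1.89 by the dimmer one, both past the threshold. The causes were not tested.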

Other observations

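Igf2 and Foxo1 were chosen after their values were seen. Igf2 was the 1 of 4 tested ligand and receptor genes called between pairs by limma's F test (adjusted p = 0.041). Foxo1 was the 1 of 20 tested signalling genes called by it (adjusted p = 0.028). Of all genes, 5.93% were called. How far this test depended on the lines of pair 9515 is given above. Foxo1, a transcription factor held in the cytoplasm by IGF signalling, measured 8.22, 6.95 and 7.15 in unstable lines (pairs 9515, 9938 and 10074), against 8.69, 6.91 and 7.67 in the stable lines. Both genes were highest in pair 9515, as Igfbp2 and Igfbp4 were.

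Igfbp2 and Igfbp5 are next to each other on chromosome 1, with no coding gene listed between them, and run towards each other. In the CDC20 pair Igfbp2 differed by -2.04, while the probe sets of Igfbp5 differed by 0.07 and 1.06.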
